A study of Mus musculus with 9 samples.

Results

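Amino acid transporters of the plasma membrane and lysosome were compared between mouse spermatogonial stem cells (SSC) and induced pluripotent stem cells (iPSC) made by reprogramming. The genes were taken by their symbols, as the protein-coding genes of the Slc1a, Slc3a, Slc6a, Slc7a, Slc36a, Slc38a and Slc43a families without Slc38a4. The mouse annotation holds 63 such genes out of 21951 protein-coding genes, of which 38 could be read from a locus of the expression table, as could 10137 protein-coding genes in all. RNA-seq of 9 libraries was compared, with 3 libraries each of SSC, of iPSC made from SSC (SSCiPSC) and of iPSC made from fibroblasts (fiPSC). SSC came from testes of pups at postnatal day 6, were sorted on magnetic beads for the GDNF receptor Gfra1 and were used at passage 0. SSCiPSC and fiPSC were clonal lines grown from SSC and from fetal male fibroblasts after doxycycline switched on the reprogramming factors, and were sorted for SSEA1 before RNA extraction. The labels give them passages 10 to 11, in embryonic stem cell medium with LIF and doxycycline, whereas the methods of the study give later passages and a withdrawal of doxycycline. All groups, SSC included, came from 1 mouse strain with 2 engineered alleles, the reverse tetracycline transactivator rtTA*M2 at Gt(ROSA)26Sor and, at Col1a1, a cassette in which tetO drives Pou5f1, Sox2, Klf4 and Myc, so part of the Pou5f1 signal of an iPSC line can come from the cassette. Nothing in the labels says that the libraries of a group came from separate cultures or animals, so p-values measure the spread between these libraries.

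Amino acid transporters are grouped by partner and coupling. The Slc3 heavy chains bind a light chain of the Slc7 family and carry it to the membrane, and the pair exchanges 1 amino acid for another. Slc1 and Slc38 carriers move glutamate, glutamine or small neutral amino acids with sodium, and the cationic Slc7 carriers bring in arginine and lysine. Slc6 carriers use sodium and chloride, some Slc36 carriers use protons, and Slc43a1 and Slc43a2 pass large neutral amino acids without an ion. Cells short of amino acids make the transcription factor ATF4, which binds an amino acid response element at many of these genes, and mouse embryonic stem cells are known for their dependence on threonine and glutamine.

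The response element was searched as TGATGNAA on both strands in promoters of 300 bases, from 250 bases before to 50 after the start site (RefSeq, GRCm38.p6). Of the 63 genes, 45 were in that table by symbol, and 4 of these (8.89%) held the letters in a promoter, beside 4.51% of all 27025 genes and 3.97% of all 32851 promoters. The 4 were Slc7a7, Slc1a4, Slc7a11 and Slc6a21, of which Slc6a21 had no locus. The other 3 are printed because they differ in their data: Slc7a7 rose in both kinds of iPSC, Slc1a4 did not pass the test, and Slc7a11 has only a short locus to describe it. Each runs 5′ to 3′ on the gene's strand, which is the minus strand for all 3, with the matches in capitals.
Slc7a7, chr14:54417895-54418194: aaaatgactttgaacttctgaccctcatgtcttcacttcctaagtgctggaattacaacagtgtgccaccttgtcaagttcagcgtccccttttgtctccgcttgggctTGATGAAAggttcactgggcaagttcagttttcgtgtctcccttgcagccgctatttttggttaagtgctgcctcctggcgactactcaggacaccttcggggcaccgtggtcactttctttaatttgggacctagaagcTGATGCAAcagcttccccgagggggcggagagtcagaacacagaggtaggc
Slc1a4, chr11:20332664-20332963: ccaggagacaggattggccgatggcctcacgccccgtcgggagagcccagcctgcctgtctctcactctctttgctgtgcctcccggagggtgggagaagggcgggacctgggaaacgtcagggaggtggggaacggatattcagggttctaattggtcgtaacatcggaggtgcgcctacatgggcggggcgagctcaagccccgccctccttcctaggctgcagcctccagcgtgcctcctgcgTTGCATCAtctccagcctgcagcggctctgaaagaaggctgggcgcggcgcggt
Slc7a11, chr3:50443564-50443863: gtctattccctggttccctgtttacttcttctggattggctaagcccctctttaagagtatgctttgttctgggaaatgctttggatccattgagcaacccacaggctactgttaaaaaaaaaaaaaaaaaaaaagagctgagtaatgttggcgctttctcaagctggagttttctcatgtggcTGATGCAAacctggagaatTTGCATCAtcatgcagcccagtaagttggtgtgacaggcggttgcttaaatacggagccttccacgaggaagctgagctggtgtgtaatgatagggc
Slc7a7 and Slc7a11 each held the letters at 2 places and Slc1a4 at 1, and a match describes these letters and not a bound site.

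The libraries differed in depth and in the cells they held. From the steps between the lowest values, the SSC libraries were estimated at 1770000, 4630000 and 1390000 fragments for replicates 1, 2 and 3, the SSCiPSC libraries at 15900000, 13700000 and 15100000, and the fiPSC libraries at 13200000, 17500000 and 15500000. Levels are given as FPKM, a fragment count scaled to transcript length and library size, so that genes of different length can be compared. The germ cell label of SSC was met by Gfra1, at 37.7, 34.1 and 23.9 FPKM in SSC and at most 0.171 FPKM in any iPSC library, and by Ddx4 and Dazl, at a mean of 63.4 and 210 FPKM in SSC and 12 and 37.8 FPKM in SSCiPSC. Of the 12 germ line markers with a locus 10 were lower in SSCiPSC and 2 higher, which were Etv5 (a mean of 32.8 FPKM in SSC and 102.9 to 142.6 FPKM in SSCiPSC) and Kit (means of 9.71 and 46.1 FPKM). The iPSC label was met by Nanog, listed at 0 in every SSC library and at 426 to 483 FPKM in SSCiPSC and 270 to 295 FPKM in fiPSC. The SSC fraction also held transcripts of other testis cells. Over 8 of 11 Sertoli cell markers with a locus, the summed level was 1185, 1196 and 940 FPKM in SSC replicates 1, 2 and 3 and at most 15.4 FPKM in an iPSC library, and Clu was the most abundant of them in SSC. Over 3 of 7 Leydig cell markers, led by Cyp11a1, it was 159.8, 123.7 and 236.5 FPKM in SSC and at most 0.358 FPKM in iPSC. Over 7 of 8 macrophage markers, led in SSC by C1qa, it was 48.2, 15.7 and 154.8 FPKM in SSC and from 8.81 to 14.5 FPKM in iPSC. In iPSC most of this sum was Cd68, at 7.65 to 13.7 FPKM, while C1qa was at most 1.89 FPKM and Csf1r at most 0.383 FPKM. Over 4 of 6 mast cell markers, led by Tpsab1, it was 94.9, 369.7 and 1022 FPKM in SSC and at most 0.0806 FPKM in iPSC, where Tpsab1 and Mcpt4 were at 0. The other 3 marker lists were those of peritubular myoid cells (led by Acta2, 70.2 to 85.8 FPKM in SSC and at most 12.5 FPKM in iPSC), of fibroblasts (led in SSC by Col3a1, 89.5 to 289.4 against 11.1 to 44.9 FPKM) and of endothelium (56.8 to 117.1 against 83.4 to 127.1 FPKM). In iPSC the endothelial sum was mostly Pecam1. The mean of Pecam1 was 41.8 FPKM in SSC and 101 FPKM in SSCiPSC, whereas Cdh5 went from 20.7 to 0.0113 FPKM, Kdr from 12.6 to 0.069 FPKM and Emcn from 4.54 FPKM to 0. Of the markers of these cells with a locus none was at 0 in all SSC libraries, while those without one were not read, and the part of these cells in the results on SSC was not tested. In such bulk samples, fewer cells of a type and less RNA per cell cannot be told apart. Among the iPSC, SSCiPSC replicate 2 stood 3.41 below the mean of the 6 iPSC libraries in the median log2 level of 5 genes of chromosome Y, on which no transporter lies, and the median of 247 genes of chromosome 14 stood 0.25 above that mean in SSCiPSC replicate 1.

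The summed level of the transporters was 493.2, 501.2 and 568.1 FPKM in SSC, 587, 684.4 and 757.7 FPKM in SSCiPSC and 628.1, 651 and 614 FPKM in fiPSC, and Slc3a2 was the most abundant of them in each of the 9 libraries. Every iPSC library stood above every SSC library in this sum, as it did in the sum over all loci, which ran from 841963 to 868707 FPKM in SSC and from 1106484 to 1416064 FPKM in iPSC. At 10 FPKM or more stood 10 to 12 of the 38 genes in an SSC library and 13 to 15 in an iPSC library, whereas at 1 FPKM or more stood 28 to 31 in SSC and 24 to 26 in iPSC. Of the 25 genes without a locus of their own, 16 had no locus (Slc1a2, Slc1a7, Slc3a1, Slc6a5, Slc6a11, Slc6a18, Slc6a19, Slc6a21, Slc7a10, Slc7a12, Slc7a13, Slc7a14, Slc7a15, Slc36a2, Slc36a3 and Slc38a11), 4 had loci over part of the gene only, 3 shared a locus with a neighbour (Slc6a20a, Slc6a20b and Slc7a6os, which is no carrier but bears the name), and 2 had only a locus with no strand (Slc7a11 and Slc6a16).

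**Figure D1:**
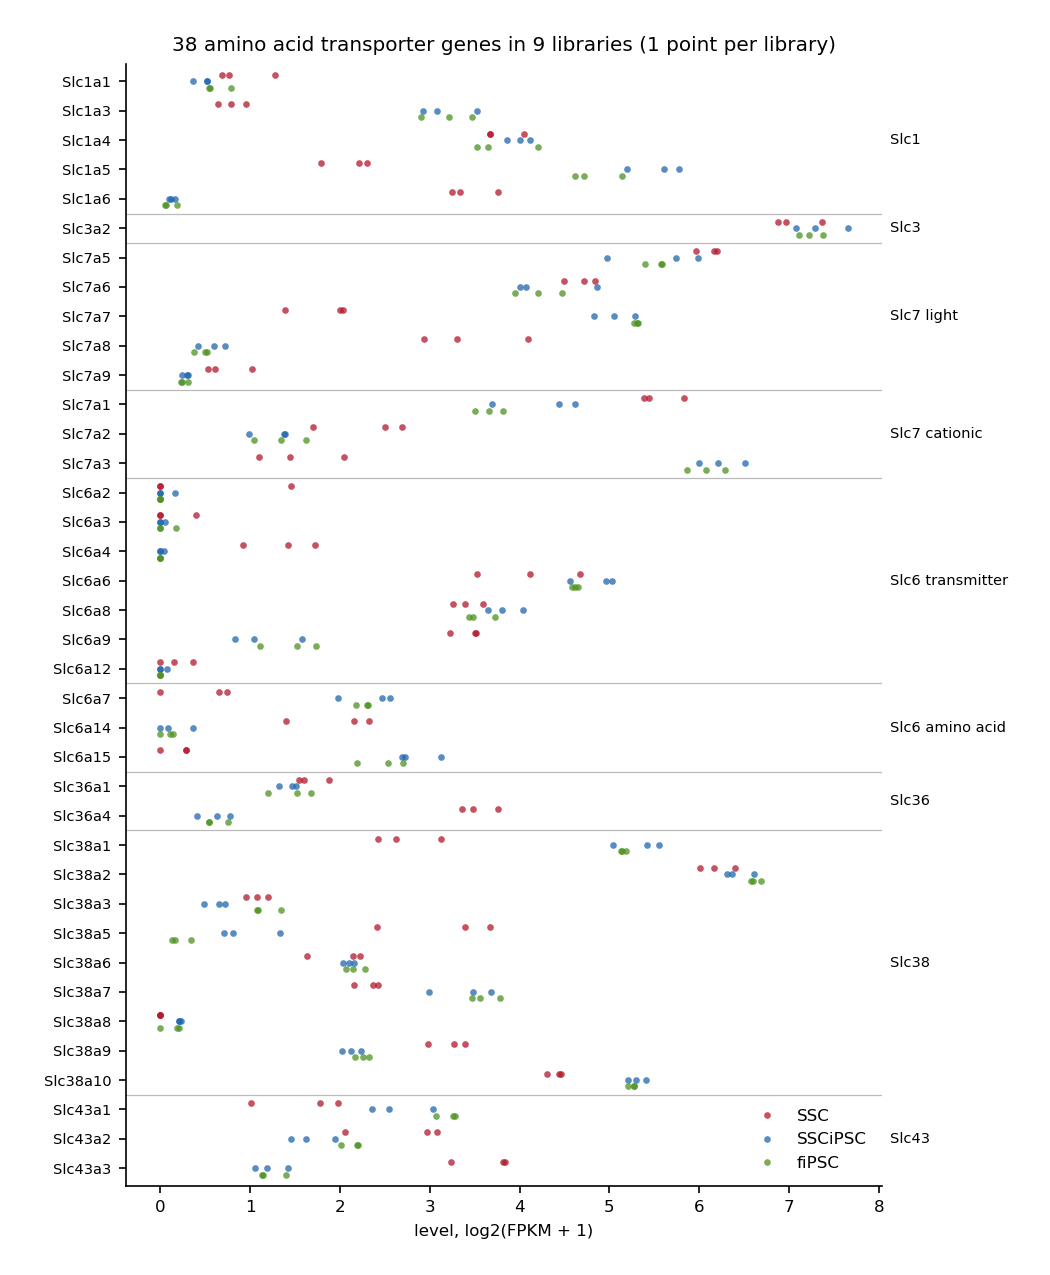
Level of the 38 transporter genes with a locus of their own, as log2(FPKM + 1) on the horizontal axis, with 1 point per library (SSC red, SSCiPSC blue, fiPSC green) and genes in rows by family. Slc3a2 lies farthest right in every library, and for Slc7a3, Slc7a7, Slc1a5, Slc38a1, Slc1a6, Slc7a8 and Slc36a4 the red points stand apart from the blue and green ones.

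SSCiPSC were compared with SSC to see which transporters differed between them. Both kinds of iPSC also differ from SSC in passage, culture, sorting and the testis cells present. These cannot be told apart from reprogramming, so rise and fall below name only the direction of a difference. Of the 38 genes, 30 reached 1 FPKM in at least 3 of the 6 libraries and were tested with limma, and 21 passed at an adjusted p below 0.05, of which 10 were higher and 11 lower in SSCiPSC. In data simulated for this comparison with few changed loci, the false share of calls was above the level the threshold aims at. Far more loci passed in the data themselves, so the simulated share cannot be carried over to them. Calls close to the threshold, such as those of Slc7a2, Slc43a1 and Slc43a2, are less certain, since they were lost under many alternatives given below. Among all 36544 loci tested 50.3% passed (26.2% higher and 24.1% lower), and among the 9028 loci of named genes 63.2% passed (34.0% higher and 29.2% lower). In 23 of the 30 genes the 3 SSCiPSC and 3 SSC libraries did not overlap, as in 59.8% of all loci and 73.6% of loci of named genes. The median log2 fold change of the 30 was 0.15, beside 0.11 over all loci and 0.14 over named genes. These counts are partly set by the limit of 1 FPKM, since 7 of the 30 (Slc1a3, Slc1a6, Slc7a8, Slc6a7, Slc6a14, Slc6a15 and Slc36a4) reached it in all 3 libraries of 1 group and in none of the other, so that a difference was built into their selection, as for 18.9% of the loci tested and 10.7% of the loci of named genes. All 7 passed and are given below as a description. Of the other 23 genes 7 were higher, 7 lower and 16 without overlap. A log2 fold change here is a difference on the scale of log2(FPKM + 1), which understates the change of low genes. Scaling by median ratios shifted the median over loci by 0.18 in both comparisons with SSC, and quantile normalization shifted it by -0.06 with SSCiPSC and -0.13 with fiPSC. Single genes moved further under quantile normalization, as given below for Slc3a2, Slc7a5 and Slc38a2.

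**Figure D2:**
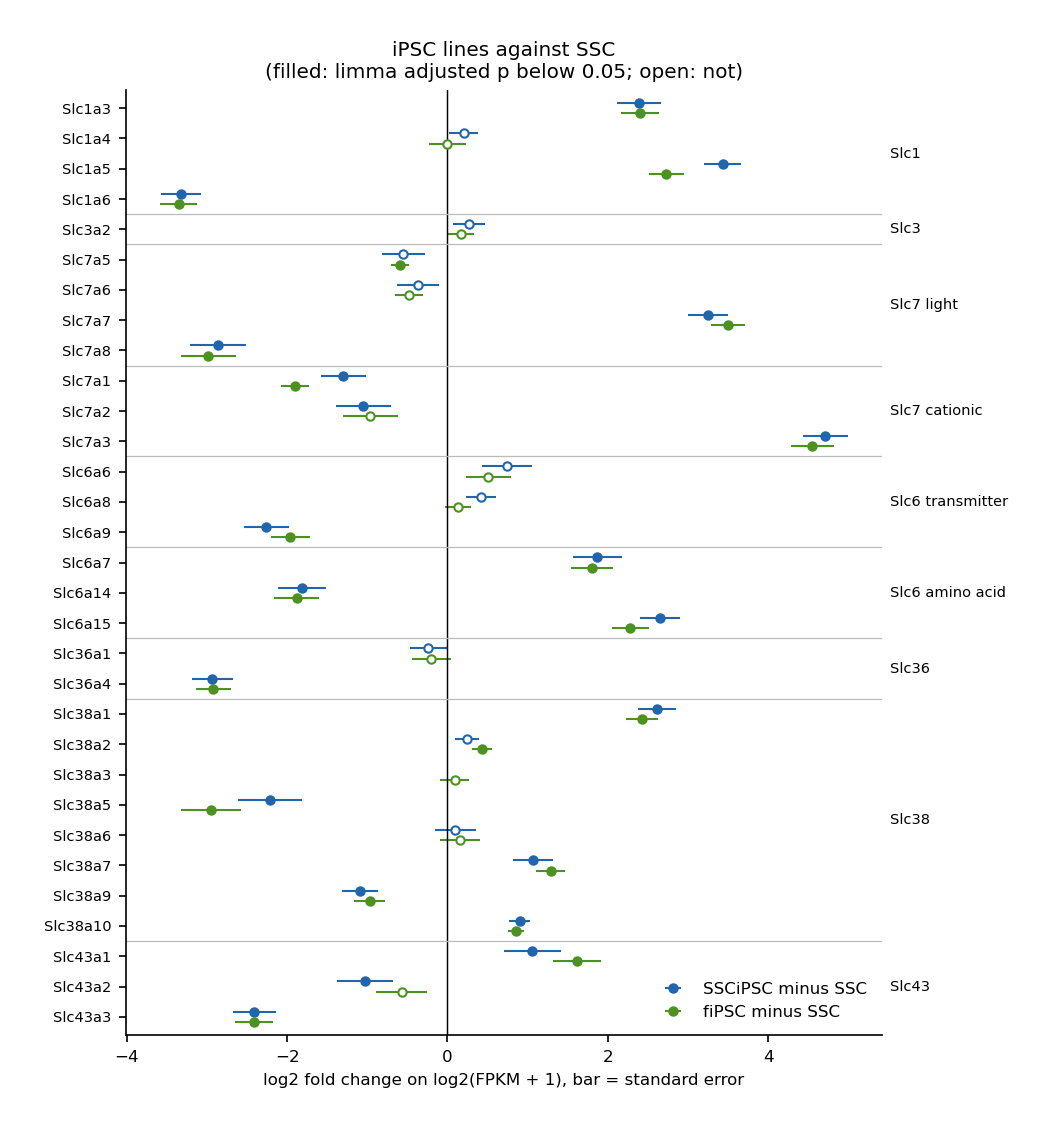
Log2 fold change on the scale of log2(FPKM + 1), with its standard error, for each transporter tested in SSCiPSC minus SSC (blue) or fiPSC minus SSC (green). Filled points passed at an adjusted p below 0.05, and they reach from 4.71 for Slc7a3 to -3.32 for Slc1a6 in SSCiPSC minus SSC and from 4.55 to -3.35 for the same genes in fiPSC minus SSC.

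The heavy chain Slc3a2 came first in abundance and is given here with its light chains. Slc3a2 (4F2hc, chromosome 19), which all the light chains measured here except Slc7a9 can pair with, was at 116.8, 124.1 and 163.5 FPKM in SSC, 134.4, 155.9 and 200.3 FPKM in SSCiPSC and 148.1, 165.7 and 137.4 FPKM in fiPSC. Its groups overlapped, and the log2 fold change of 0.27 ± 0.20 (SE, adjusted p = 0.308) did not pass. Under quantile normalization it was -0.72 (adjusted p = 0.0224), in the other direction. Slc7a5 (LAT1), the exchanger of large neutral amino acids, was at 72.7, 70.6 and 61.6 FPKM in SSC and 30.3, 52.5 and 62.4 FPKM in SSCiPSC. The highest SSCiPSC library lay within the range of SSC, and the difference of -0.55 ± 0.27 (adjusted p = 0.139) did not pass. Under quantile normalization Slc7a5 passed as lower, by -1.19 (adjusted p = 0.00715). Slc7a6 (y+LAT2), which exchanges cationic for neutral amino acids, was at 25.3, 27.7 and 21.6 FPKM in SSC and 15.1, 15.8 and 28.0 FPKM in SSCiPSC, a difference of -0.37 ± 0.26 (adjusted p = 0.28). Both genes lie on chromosome 8, and in both SSCiPSC replicate 3 was the highest of the 3 libraries. Without that library the difference for Slc7a6 was -0.65 (adjusted p = 0.0415). The median of 372 genes of chromosome 8 deviated from the mean of the iPSC libraries by -0.13, -0.11 and 0.07 on the log2 scale in SSCiPSC replicates 1, 2 and 3. In fiPSC replicates 1, 2 and 3 it deviated by 0.05, 0.13 and -0.01. On the autosomes other than 8 and 14, SSCiPSC replicate 2 stood 0.08 to 0.17 above that mean. The part of the chromosome in these levels was not tested.

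The other pair of light chains, both on chromosome 14, moved in opposite directions. Slc7a7 (y+LAT1, chr14:54369229-54420097), the relative of Slc7a6 that exports arginine and lysine from epithelia, was at 3.09, 1.61 and 2.99 FPKM in SSC, on an estimated 11.6, 15.8 and 8.77 fragments, and at 32.3, 37.9 and 27.3 FPKM in SSCiPSC. Every SSCiPSC library stood above every SSC library, and the ratio of the means was 12.7. Slc7a7 rose by a log2 fold change of 3.25 ± 0.25 (adjusted p = 0.000201). Slc7a8 (LAT2, chr14:54722040-54781934), the relative of Slc7a5 for neutral amino acids, was at 8.84, 6.63 and 16.1 FPKM in SSC and 0.652, 0.514 and 0.342 FPKM in SSCiPSC. The groups did not overlap, the mean was 20.9 times as high in SSC, and Slc7a8 changed by -2.86 ± 0.35 (adjusted p = 0.000935). It was tested through SSC alone, and with no filter on low values its adjusted p was 0.00147. SSC replicate 3, the library with the highest macrophage, Leydig, fibroblast and mast cell sums, was also the highest for Slc7a8, and the first 3 of these sums had the same order over the SSC libraries as Slc7a8. That order was also the reverse of the order of depth, and the Sertoli, germ line, peritubular, endothelial and mast cell sums had other orders. The part of these cells and of depth in Slc7a8 was not tested. Slc7a11 (xCT), which exchanges cystine for glutamate, was read only through a locus of 260 bp with no strand inside the last exon of an annotated transcript (chr3:50370342-50370601), at 27.3, 22.98 and 21.02 FPKM in SSC, 79.5, 108.0 and 81.5 FPKM in SSCiPSC and 83.4, 71.6 and 82.4 FPKM in fiPSC. All 6 iPSC libraries stood above the 3 SSC libraries, and this fragment was not counted among the genes tested. Slc7a9, the light chain of kidney and gut, stayed at or below 1.04 FPKM in every library and was not tested.

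Of the cationic carriers, Slc7a3 and Slc7a1 exchanged ranks. Slc7a3 (CAT3, chrX:101079111-101085626) was at 1.72, 1.15 and 3.13 FPKM in SSC, on an estimated 7.87, 13.7 and 11.2 fragments, and at 62.8, 90.4 and 73.3 FPKM in SSCiPSC. No library of either group came near the other group, the ratio of the means was 37.8, and the log2 fold change of 4.71 ± 0.28 (adjusted p = 0.000106) was the largest rise among the transporters. Slc7a1 (CAT1, chr5:148330970-148399980), the widely expressed carrier of arginine and lysine, was at 42.5, 40.7 and 56.0 FPKM in SSC and 11.9, 20.7 and 23.6 FPKM in SSCiPSC. The groups did not overlap, the mean was 2.48 times as high in SSC, and Slc7a1 changed by -1.30 ± 0.28 (adjusted p = 0.00808). Within SSC its order was that of the macrophage, Leydig and fibroblast sums, as for Slc7a8, and the reverse of that of depth. The Sertoli, germ line, peritubular, endothelial and mast cell sums had other orders. The part of these cells and of depth in Slc7a1 was not tested. A short locus with no strand inside the gene, beside the 3′ end of the locus read here (chr5:148330581-148330894) ran alongside, at 50.6, 52.6 and 78.8 FPKM in SSC and 16.0, 20.9 and 29.2 FPKM in SSCiPSC. Slc7a2 (CAT2) passed narrowly, from 4.66, 5.45 and 2.25 FPKM in SSC to 0.975, 1.60 and 1.61 FPKM in SSCiPSC (-1.05 ± 0.34, adjusted p = 0.0411), and its call was lost under 11 of 15 alternatives, among them the omission of any of SSC replicates 1 and 2 and of any SSCiPSC library (adjusted p up to 0.133). The 3 cationic carriers summed to 48.9, 47.3 and 61.4 FPKM in SSC and 75.7, 112.7 and 98.5 FPKM in SSCiPSC.

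**Figure D3:**
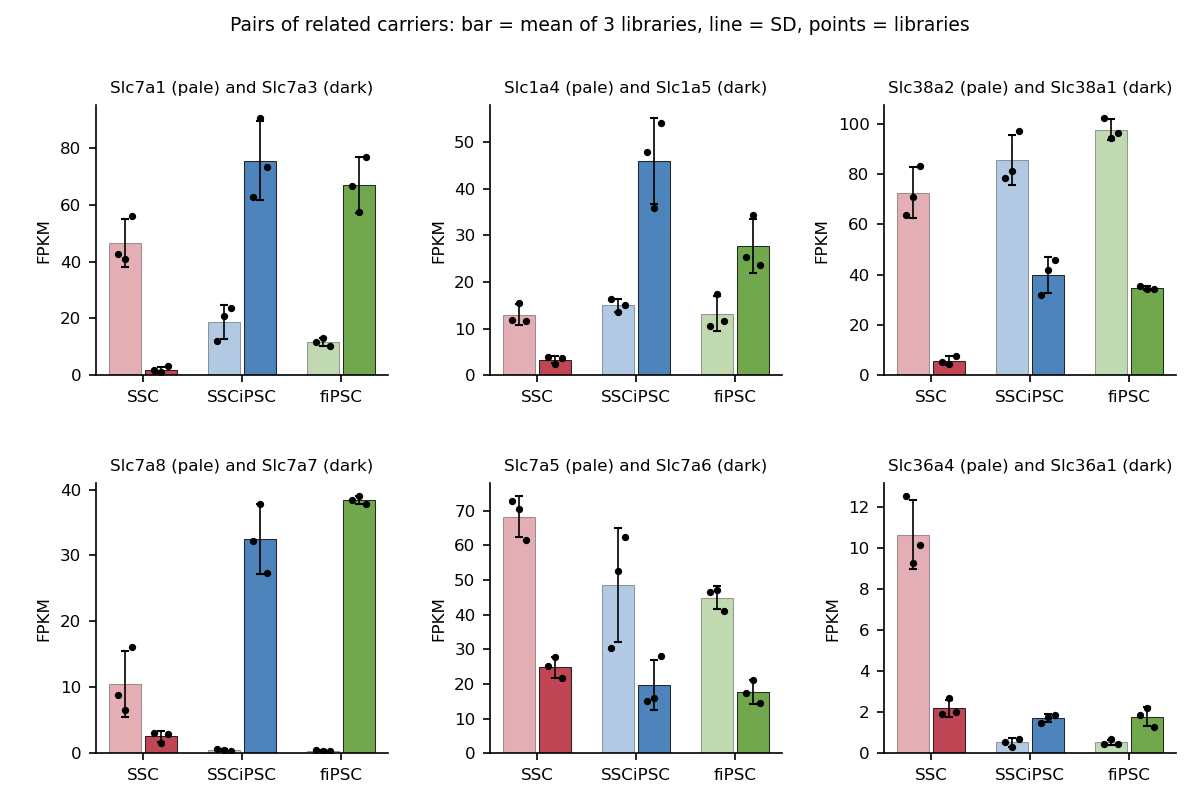
FPKM of 6 pairs of related carriers in SSC, SSCiPSC and fiPSC, with bars at the mean of 3 libraries, lines for the SD and points for the libraries. Slc7a1 is the higher of its pair in SSC and Slc7a3 in both kinds of iPSC, and the same exchange is seen for Slc1a4 and Slc1a5 and for Slc7a8 and Slc7a7, whereas Slc38a2 stays above Slc38a1 in each group.

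In the Slc1 family, 2 of 4 genes tested rose and 1 fell, beside 34.0% and 29.2% of loci of named genes. Of these, Slc1a3 and Slc1a6 were each tested through 1 group alone. Slc1a5 (ASCT2, chr7:16781204-16798375), the sodium-coupled exchanger of glutamine, was at 3.92, 2.44 and 3.64 FPKM in SSC, on an estimated 18.4, 29.9 and 13.3 fragments, and at 47.8, 35.8 and 53.9 FPKM in SSCiPSC. The groups lay far apart, with a ratio of the means of 13.7 and a log2 fold change of 3.43 ± 0.23 (adjusted p = 0.000142). Slc1a4 (ASCT1), its relative for serine, alanine and cysteine, was at 11.8, 15.6 and 11.7 FPKM in SSC and 16.4, 13.5 and 15.1 FPKM in SSCiPSC, with overlapping groups (0.20 ± 0.18, adjusted p = 0.402). Slc1a3 (GLAST), a glutamate carrier of glia, went from 0.728, 0.557 and 0.931 FPKM in SSC, on an estimated 5.51 to 11 fragments, to 6.59, 10.5 and 7.48 FPKM in SSCiPSC and rose by 2.39 ± 0.27 (adjusted p = 0.000683, and 0.00108 with no filter). A second locus over the 3′ part of Slc1a3 was at 0, 0.411 and 1.37 FPKM in SSC and 13.97, 19.7 and 13.95 FPKM in SSCiPSC. Slc1a6 (EAAT4, chr10:78780503-78814801), the glutamate carrier of Purkinje cells, was at 8.47, 12.5 and 9.14 FPKM in SSC, on 28, 108 and 23.7 fragments, and at 0.0666, 0.0857 and 0.117 FPKM in SSCiPSC, on 1.98, 2.2 and 3.32 fragments. It had the largest fall among the transporters, by 3.32 ± 0.25 on the log2 scale (adjusted p = 0.000199, and 0.000314 with no filter). Slc1a1 (EAAT3) was at most 1.43 FPKM on its own strand and was not tested, while a locus with no strand over the same interval, which holds a pseudogene and part of another gene on the other strand, was at 24.5, 44.7 and 41.8 FPKM in SSC and 88.5 to 95.3 FPKM in SSCiPSC and was not used for the gene.

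The Slc38 family held Slc38a2, the gene with the highest mean over the 9 libraries after Slc3a2. Of the 7 genes of the family tested 5 passed, 3 higher and 2 lower. Among loci of named genes 63.2% passed (34.0% higher and 29.2% lower). Slc38a2 (SNAT2), the carrier of small neutral amino acids that cells raise when starved of them, was at 63.5, 70.9 and 83.3 FPKM in SSC and 78.4, 81.3 and 97.0 FPKM in SSCiPSC. The groups overlapped (0.24 ± 0.15, adjusted p = 0.246), and the difference was -0.53 under quantile normalization and 0.47 under median-ratio scaling (adjusted p = 0.0279 and 0.049). Slc38a1 (SNAT1, chr15:96573453-96643278), its neighbour on chromosome 15 and a carrier of glutamine, was at 5.16, 4.37 and 7.71 FPKM in SSC and 31.9, 41.8 and 45.8 FPKM in SSCiPSC. It rose by 2.61 ± 0.24 (adjusted p = 0.000351) with a ratio of the means of 6.93, yet remained below Slc38a2 in every library. Slc38a10 rose from 21.1, 18.7 and 20.7 to 35.8, 41.6 and 38.4 FPKM (0.90 ± 0.13, adjusted p = 0.0018). Slc38a7, a lysosomal glutamine carrier, rose from 4.16, 4.37 and 3.44 to 11.9, 6.93 and 10.2 FPKM (1.07 ± 0.25, adjusted p = 0.0125), with adjusted p = 0.0504 and 0.0561 without SSCiPSC replicates 1 and 3. Slc38a5 (SNAT5) fell from 9.48, 11.8 and 4.33 to 0.757, 1.52 and 0.633 FPKM (-2.21 ± 0.40, adjusted p = 0.00438). Within SSC it was lowest in replicate 3, the SSC library of lowest depth. The Sertoli, germ line and peritubular sums were also lowest there (636.9 FPKM for the germ line, against 748 and 916.7 FPKM in replicates 1 and 2). The part of these cells and of depth in Slc38a5 was not tested. Slc38a9, the lysosomal arginine sensor of mTORC1, fell from 8.67, 9.53 and 6.91 to 3.71, 3.05 and 3.35 FPKM (-1.09 ± 0.22, adjusted p = 0.00654). Slc38a6 lay between 2.11 and 3.68 FPKM in SSC and SSCiPSC (0.10 ± 0.26, adjusted p = 0.791), and Slc38a3 and Slc38a8 were not tested.

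Among the Slc6 carriers of transmitters and osmolytes, 3 of 7 genes with a locus were tested and 1 passed, beside 63.2% of loci of named genes. Slc6a9 (GlyT1), a glycine carrier, fell from 8.36, 10.5 and 10.3 to 1.06, 0.785 and 1.99 FPKM (-2.26 ± 0.28, adjusted p = 0.000974), with no overlap. Slc6a6, the taurine carrier, was at 16.3, 10.5 and 24.5 FPKM in SSC and 22.6, 31.6 and 30.1 FPKM in SSCiPSC (0.74 ± 0.31, adjusted p = 0.0893). It passed as higher under 4 of 16 alternatives, among them without SSC replicate 3 (1.03, adjusted p = 0.0198). Slc6a8, the creatine carrier, was at 9.47, 8.55 and 11.1 FPKM in SSC and 12.996, 15.4 and 11.6 FPKM in SSCiPSC, without overlap (0.42 ± 0.19, adjusted p = 0.109). It passed as higher under 1 of 16 alternatives (adjusted p = 0.0344). Slc6a4, the serotonin carrier, was at 0.895, 2.31 and 1.67 FPKM in SSC and at most 0.0297 FPKM in an iPSC library, and with Slc6a2, Slc6a3 and Slc6a12 it was too low to be tested. The 3 Slc6 amino acid carriers with a locus were each tested through 1 group alone. Slc6a15, for branched chain amino acids and proline, rose from 0, 0.222 and 0.221 to 5.63, 5.44 and 7.74 FPKM (2.65 ± 0.25, adjusted p = 0.000372), and Slc6a7, a proline carrier, rose from 0, 0.572 and 0.677 to 4.88, 4.52 and 2.93 FPKM (1.87 ± 0.31, adjusted p = 0.00303). Both rest on at most 8.49 estimated fragments in any SSC library. Slc6a14, for neutral and cationic amino acids, fell from 4.01, 3.46 and 1.63 to 0, 0.288 and 0.0596 FPKM (-1.81 ± 0.30, adjusted p = 0.00297).

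Of the Slc36 carriers, Slc36a4 (chr9:15709609-15739028), which carries proline and tryptophan, was at 12.5, 9.27 and 10.2 FPKM in SSC and 0.543, 0.322 and 0.717 FPKM in SSCiPSC. No libraries overlapped, the mean was 20.2 times as high in SSC, and Slc36a4 changed by -2.93 ± 0.25 (adjusted p = 0.000276). It too was tested through SSC alone, with an adjusted p of 0.000395 with no filter. Slc36a1, the lysosomal carrier of small amino acids, was at 1.91, 2.68 and 2.02 FPKM in SSC and 1.49, 1.77 and 1.86 FPKM in SSCiPSC, also without overlap (-0.24 ± 0.23, adjusted p = 0.437). All 3 Slc43 genes passed, Slc43a1 and Slc43a2 narrowly, beside 63.2% of loci of named genes. Slc43a3, which carries purine bases and not amino acids, fell from 13.33, 13.03 and 8.46 to 1.27, 1.68 and 1.08 FPKM (-2.41 ± 0.27, adjusted p = 0.000639), on a locus over 55.8% of the gene, while a second locus over another part was at 19.02, 20.08 and 19.95 FPKM in SSC and at most 3.42 FPKM in iPSC. Slc43a1 (LAT3) was at 1.0201, 2.44 and 2.93 FPKM in SSC and 7.18, 4.86 and 4.13 FPKM in SSCiPSC (1.06 ± 0.35, adjusted p = 0.0451), and Slc43a2 (LAT4) at 7.49, 3.15 and 6.82 FPKM and 2.85, 2.08 and 1.74 FPKM (-1.03 ± 0.35, adjusted p = 0.0494). These calls were lost under 9 and 11 of 15 alternatives, with adjusted p up to 0.148 and 0.149, and for both the omission of any SSCiPSC library or of SSC replicate 1 was enough, as was SSC replicate 2 for Slc43a1 and SSC replicate 3 for Slc43a2.

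Next, fiPSC were compared with SSCiPSC, to see whether the cell of origin left a difference. None of the 26 transporters tested passed, beside 0.0678% of the 33948 loci tested (23 loci) and 0.0360% of loci of named genes, and 4 had an unadjusted p below 0.05 in limma, beside 11.7% of loci and 12.9% of loci of named genes. In 4 genes the groups did not overlap, beside 18.6% and 23.6%. The median log2 fold change of the 26 was -0.02, beside 0.01 over all loci. The log2 fold changes ran from -0.70 to 0.55, and the 95% intervals of 23 of the 26 lay within 1 on either side of 0, the exceptions being Slc1a5, Slc7a1 and Slc43a1. A miss of the threshold does not show that the groups had equal levels. Slc38a5, too low to be tested here, was at 0.757, 1.52 and 0.633 FPKM in SSCiPSC, on an estimated 17.5 to 38.2 fragments, and at 0.0900, 0.272 and 0.116 FPKM in fiPSC, on 2.17 to 8.7 fragments, without overlap.

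The smallest p belonged to Slc1a5, the glutamine exchanger, at 25.3, 34.3 and 23.5 FPKM in fiPSC against 47.8, 35.8 and 53.9 FPKM in SSCiPSC. The highest fiPSC library lay just below the lowest SSCiPSC library, and the difference in limma was -0.70 ± 0.20 (95% interval -1.17 to -0.24, adjusted p = 0.288). Slc38a3 (SNAT3) was at 1.13, 1.54 and 1.11 FPKM in fiPSC and 0.650, 0.403 and 0.570 FPKM in SSCiPSC (0.55 ± 0.18, interval 0.13 to 0.97, adjusted p = 0.326). It was tested only because all 3 fiPSC libraries and no SSCiPSC library reached 1 FPKM, so its separation and interval are partly set by that limit, and in 3 of the other 25 genes the groups did not overlap. Slc43a1 was at 7.39, 8.55 and 8.74 FPKM in fiPSC (0.55 ± 0.21, interval 0.07 to 1.04, adjusted p = 0.369), and Slc43a2 at 3.56, 3.59 and 3.03 FPKM (0.46 ± 0.20, interval -0.01 to 0.92, adjusted p = 0.43), both above every SSCiPSC library. Slc7a1 was at 11.6, 13.04 and 10.3 FPKM in fiPSC, where the highest library overlapped SSCiPSC (-0.60 ± 0.25, interval -1.18 to -0.01, adjusted p = 0.414). For 3 genes that rose over SSC, the difference between the iPSC had an interval of -0.56 to 0.23 for Slc7a3, -0.07 to 0.57 for Slc7a7 and -0.53 to 0.17 for Slc38a1.

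**Figure D4:**
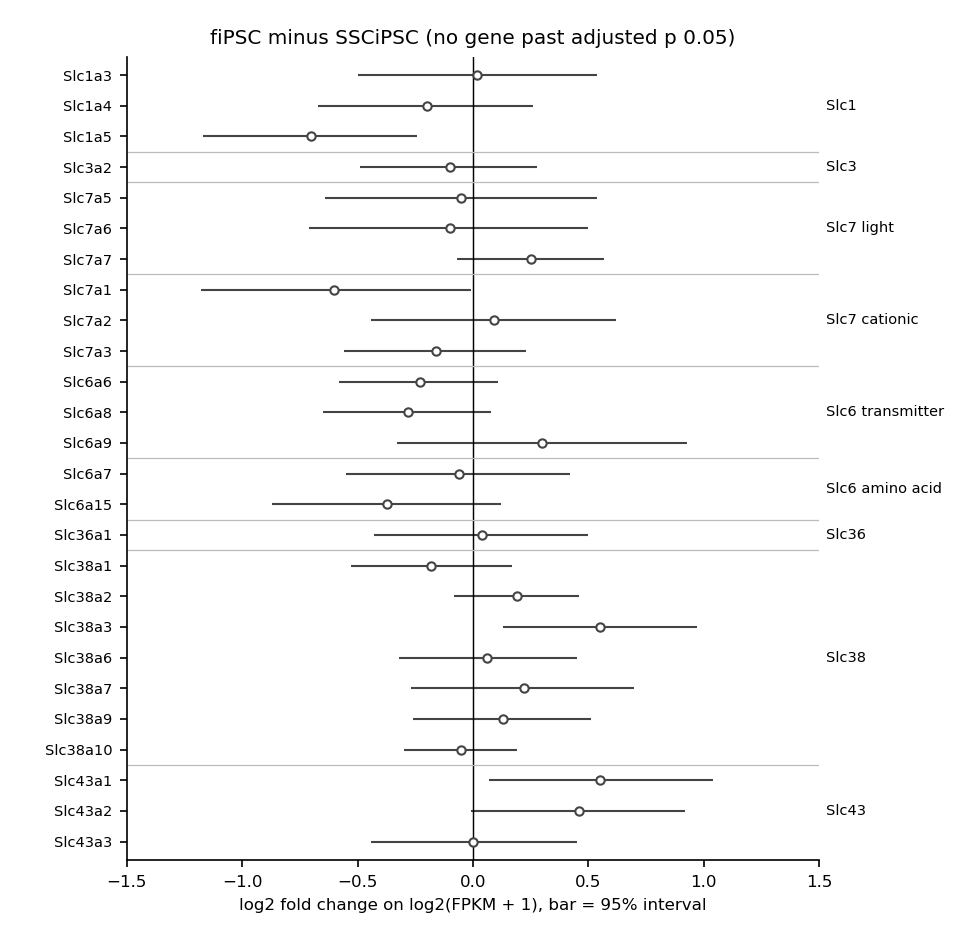
Log2 fold change of fiPSC minus SSCiPSC on the scale of log2(FPKM + 1), with its 95% interval, for the 26 transporters tested, in rows by family. Points lie between -0.70 for Slc1a5 and 0.55 for Slc38a3 and Slc43a1, and 22 of the 26 intervals hold 0.

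Finally, fiPSC were set against the same SSC libraries, so that their values are no independent repeat of those for SSCiPSC. Of 31 genes tested 21 passed, 11 higher and 10 lower in fiPSC, beside 51.8% of 38007 loci (28.0% higher and 23.7% lower) and 65.9% of loci of named genes (35.3% higher and 30.6% lower). In 23 of the 31 the groups did not overlap, beside 61.6% of loci and 76.6% of loci of named genes. The median log2 fold change was 0.09, beside 0.17 over all loci. Here 8 of the 31 were tested through 1 group alone, the 7 named above and Slc38a5, as were 19.2% of loci and 10.4% of loci of named genes. All 8 passed, and of the other 23 genes 8 were higher, 5 lower and 15 without overlap. Slc7a3 was at 66.6, 57.4 and 76.9 FPKM in fiPSC (4.55 ± 0.27, adjusted p = 9.98e-05), Slc7a7 at 38.4, 39.0 and 37.8 FPKM (3.50 ± 0.21, adjusted p = 0.000102) and Slc38a1 at 35.4, 34.3 and 34.1 FPKM (2.43 ± 0.20, adjusted p = 0.000238). Slc1a5 stood 2.73 ± 0.22 above SSC (adjusted p = 0.000228), with a ratio of the means of 8.31. Of the genes lower in fiPSC, 3 that were tested through SSC alone are given as a description: Slc1a6 was at or below 0.134 FPKM in fiPSC (-3.35 ± 0.23), Slc7a8 at or below 0.429 FPKM (-2.98 ± 0.34) and Slc36a4 at or below 0.691 FPKM (-2.92 ± 0.22). Slc7a1 changed by -1.90 ± 0.17 (adjusted p = 0.000281), and its mean was 3.99 times as high in SSC. In this comparison Slc7a5, at 46.5, 47.2 and 41.1 FPKM in fiPSC, passed as lower (-0.59 ± 0.11, adjusted p = 0.00538, and 0.0606 with all 9 libraries fitted together) and Slc38a2, at 102.1, 94.2 and 96.2 FPKM, as higher (0.43 ± 0.12, adjusted p = 0.0272). The call for Slc38a2 was lost under 8 of 16 alternatives and the difference was -0.26 under quantile normalization, and among libraries it was lost without SSC replicate 1 or 2 or any fiPSC library. Slc7a2 and Slc43a2 did not pass here (adjusted p = 0.0554 and 0.185). Slc7a2 passed under 4 of 15 alternatives, among them without SSC replicate 3 (adjusted p = 0.0105), and Slc43a2 without SSC replicate 2 (adjusted p = 0.0134). Whether the 2 kinds of iPSC differ in these 4 genes is what the direct comparison above tests. The remaining genes are shown in the plot of changes against SSC.

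The genes around the transporters were read from a list of 91 genes of the amino acid response, of amino acid synthesis and breakdown, of mTORC1 sensing and of further carriers, of which 63 had a locus. Atf4 itself had none. Between SSCiPSC and SSC 41 of 60 tested passed, 33 higher and 8 lower, beside 50.3% of all loci (26.2% higher and 24.1% lower) and 63.2% of loci of named genes (34.0% higher and 29.2% lower). Of the 60, 7 were tested through 1 group alone and passed, among them Tdh and Slc16a10, and of the other 53 genes 28 were higher and 6 lower. The median log2 fold change of the 60 was 0.90, beside 0.11 over all loci and 0.14 over named genes. The list was chosen with earlier results of these data known, so its counts and median only describe the genes chosen. All 7 genes that passed of the serine, glycine, folate and threonine group (9 tested) were higher, as were all 8 of the glutamine, glutamate, aspartate and proline group (10 tested) and all 4 of the methionine, cysteine and glutathione group (6 tested). In the ATF4 arm 3 were higher and 2 lower of 9, in the branched chain and arginine group 3 and 1 of 4, at mTORC1 3 and 3 of 14, and among the further carriers 5 and 2 of 8.

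The largest rise was that of Tdh, the threonine dehydrogenase of mouse embryonic stem cells, at 0.721, 0.964 and 0.460 FPKM in SSC and 140.6, 285.2 and 163.6 FPKM in SSCiPSC (6.79 ± 0.29, adjusted p = 4.51e-05). Tdh was tested through SSCiPSC alone, with an adjusted p of 5.81e-05 with no filter. Amt, a subunit of the glycine cleavage system, went from 0.537, 2.47 and 1.37 to 88.5, 88.1 and 76.7 FPKM (5.19 ± 0.31, adjusted p = 0.0001). Slc25a13, the mitochondrial aspartate and glutamate exchanger, rose from 4.76, 5.66 and 2.93 to 82.3, 85.9 and 82.1 FPKM (3.99 ± 0.22, adjusted p = 8.25e-05). Of the folate enzymes, Mthfd1 rose from 7.40, 8.05 and 10.7 to 115.8, 151.9 and 107.98 FPKM (3.70 ± 0.20, adjusted p = 7.86e-05) and Mthfd1l from 3.49, 3.15 and 2.68 to 42.6, 38.7 and 51.01 FPKM (3.45 ± 0.18, adjusted p = 7.52e-05). The groups did not overlap in these 5 genes, beside 59.8% of all loci and 73.6% of loci of named genes. The 5 were picked by the size of their rise past the threshold, so this only describes them. Among falls, Slc16a10, a carrier of aromatic amino acids, went from 16.6, 13.4 and 23.7 to 0.825, 0.332 and 0.735 FPKM (-3.51 ± 0.29, adjusted p = 0.000252, and 0.000346 with no filter), tested through SSC alone and with its highest SSC value in replicate 3, as for Slc7a8. Rragd, a GTPase of mTORC1 sensing, fell from 31.8, 35.9 and 26.7 to 5.73, 13.1 and 8.89 FPKM (-1.72 ± 0.29, adjusted p = 0.00329) and Ctns, the lysosomal cystine carrier, from 13.4, 11.9 and 9.37 to 5.89, 4.29 and 4.95 FPKM (-1.05 ± 0.22, adjusted p = 0.00758). Calls in the ATF4 arm went both ways, for which Asns and Trib3 are named after their values were seen. Asns, the asparagine synthetase, rose from 40.4, 51.9 and 56.5 to 223.1, 199.2 and 271.6 FPKM (2.2 ± 0.18, adjusted p = 0.00025) and Trib3 by 1.41 ± 0.32 (adjusted p = 0.0107), whereas Chac1, which breaks down glutathione, fell from 22.7, 23.1 and 32.9 to 7.76, 4.63 and 11.5 FPKM (-1.66 ± 0.32, adjusted p = 0.00578) and Cebpg, a partner of ATF4, from 23.2, 27.3 and 29.7 to 10.9, 10.6 and 12.2 FPKM (-1.18 ± 0.16, adjusted p = 0.00132). Between fiPSC and SSCiPSC none of 58 tested genes of the list passed in limma, with 8 at an unadjusted p below 0.05, beside the 11.7% of loci given above, and between fiPSC and SSC 45 of 60 passed, 35 higher and 10 lower (6 of them tested through 1 group alone, and 30 and 9 of the other 54), beside 51.8% of all loci (28.0% higher and 23.7% lower) and 65.9% of loci of named genes (35.3% and 30.6%).

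Promoters of the transporters were also read for CpG, counted in the 300 bases of the start site nearest to the locus. Of the 10 genes higher in SSCiPSC 5 were in the table, with 3 to 26 CpG and a median of 10, and of the 11 lower 9 were, with 4 to 32 and a median of 20. The 6 tested genes in the table that did not pass had 15 to 41 and a median of 23.5, beside a median of 7 over all promoters. The ranges overlapped.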

How the data were processed

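RNA-seq of 3 SSC, 3 SSCiPSC and 3 fiPSC libraries was used as deposited. Per the labels, the authors removed ribosomal RNA, made stranded mRNA libraries, trimmed reads with Trimmomatic 0.32, aligned them with TopHat2 2.0.9 and Bowtie2 2.1.0, and quantified loci with Cufflinks 2.2.1 and Cuffdiff. The deposited values are FPKM per locus (54914 loci, 1 left out for a blank value), so no count model was used. The notes name the build mm9, but coordinates match GRCm38: 2310 of 9889 stranded loci had both ends within 300 bp of the ends of a gene (GENCODE M21), against 3 and 2 after a shift of 1000000 bp. A gene was taken from its highest-mean locus on its own strand, with at least 50% reciprocal overlap. The strand was read from the order of the table.

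The 3 comparisons were fitted separately on log2(FPKM + 1) with lmFit and eBayes (trend on) of limma 3.58.1 under R 4.3.3. A locus entered when 3 or more of the 6 libraries reached 1 FPKM, with Benjamini-Hochberg adjustment over all loci and a threshold of 0.05. An exact permutation test of 3 against 3 cannot go below p = 0.1. Depth was estimated from the steps of low values, all within 0.1 of a whole fragment. Values in every library are given for up to 12 largest changes each way at 10 FPKM or more, for heavy and light chains and related pairs, and for the 5 smallest p between iPSC, and of the response list the 5 largest changes each way at 10 FPKM or more in a group. Members and lists were chosen with earlier results of these data known. Results that need a withheld item are not reported here.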

Additional observations from a re-analysis of the deposited data

How the results depend on the processing

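Tested alternatives were 0.1 as pseudocount, no filter, a stricter filter (mean over the 6 libraries of 5 FPKM or more), quantile and median-ratio scaling, eBayes with its trend off, a joint fit of the 9 libraries, the replicate block, 1 locus for each named gene, a threshold of 0.01 and each library left out in turn. With the stricter filter, 20 transporters were tested between SSCiPSC and SSC and 13 passed (6 higher and 7 lower), since fewer were tested, and 16 of 21 passed between fiPSC and SSC. Otherwise 17 to 22 passed in the first comparison and 20 to 23 in the second, and with a library left out 17 to 21 and 20 to 24. Of the response and synthesis list 33 to 43 and 36 to 46 passed, and with a library left out 37 to 40 and 38 to 44. No transporter and no gene of that list passed in fiPSC against SSCiPSC under any of these alternatives, where the count over all loci was 23 in limma as reported, 6 with the replicate block, 9 at 0.01, 10 with the stricter filter, 11 in the joint fit, 51 with 1 locus for each named gene and 6 to 20 with a library left out. Median-ratio scaling gave 13 higher and 9 lower transporters in SSCiPSC, against 10 and 11. Reading a gene from its highest-mean locus on any strand, chosen after seeing the data, gave 22 transporters in SSCiPSC against SSC, 0 in fiPSC against SSCiPSC and 22 in fiPSC against SSC.

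Over the genes and alternatives run, 5 genes changed sign. Under quantile normalization they were Slc38a2 (-0.53 with SSCiPSC, and with fiPSC -0.26, where the deposited scale gave a call of 0.43), Slc3a2 (-0.72 and -0.71) and Slc38a3 with fiPSC (-0.08). Slc38a6 ran from -0.09 to 0.21 with SSCiPSC and from -0.02 to 0.27 with fiPSC when a library was left out, the lowest without SSC replicate 1. Slc1a4 in fiPSC against SSC was 0.22 with median-ratio scaling and ran from -0.21 to 0.13 with a library left out (0.13 without SSC replicate 2 or fiPSC replicate 1, and 0.07 without fiPSC replicate 3). The causes were not tested.

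The labels number the replicates alike in each group, but deviations of same-numbered libraries from their group means had correlations of -0.286 to 0.022, so the numbers were not taken as pairs. Under the replicate block 18, 0 and 20 transporters passed (in the order of the comparisons above), and 40, 0 and 43 genes of the response list. Depth limits low genes in SSC, where 3 fragments of Slc1a1 came to 0.178 to 0.595 FPKM, against at most 0.0624 FPKM in iPSC.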
